A study of Mus musculus with 96 samples.

Results

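Esrrb-low and Esrrb-high cells are the ends of a ranking of single mouse embryonic stem (ES) cells, chosen by their level of Esrrb, an orphan nuclear receptor of the naive pluripotency network. All cells were J1 ES cells, an established mouse line, cultured feeder-free, with serum plus the cytokine LIF, at passage 12 to 20. No cell carried another treatment or genotype, and every cell was one group in the labels. The messenger RNA of 48 cells, captured one by one on a microfluidic chip, was sequenced, each library on 2 lanes, which were summed here. Levels are CPM, the reads of a gene scaled to the summed gene reads of that cell. Cells with a Gata6 level under 20 CPM were kept, which left out 13 cells with Gata6, a primitive endoderm factor, at 82.8 to 617 CPM. Of the 35 cells kept, the 12 with the least Esrrb are called Esrrb-low, the 12 with the most Esrrb-high, and the other 11 the cells between. The 2 groups hold 24 of the 48 cells, or 48 of the 96 lane libraries.

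Esrrb binds DNA as a monomer at an extended half-site and recruits coactivators such as Ncoa3 without a known natural hormone. In ES cells it acts with Nanog, Klf2, Klf4, Tbx3 and Tfcp2l1 in the naive network, which keeps cells in a state like the preimplantation epiblast. Serum cultures are known to hold cells that move towards the primed state of the later epiblast, marked by Otx2, Dnmt3b and Fgf5.

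Because the groups were selected on Esrrb, its own levels are a description of the choice. Esrrb had 0.154 CPM in the lowest of the Esrrb-low cells, 55.2 at the median and 132 in the highest, against 245, 309 and 589 CPM in Esrrb-high cells. The cells between had 142 to 243 CPM. Near the limits the order of cells was not fixed by the counts. The last Esrrb-low cell had 132 CPM (exact 95% Poisson interval 122 to 144, counting error only) and the next cell, left between, 142 CPM (132 to 152). On the other side, the last cell between had 243 CPM (232 to 254) and the first Esrrb-high cell 245 CPM (234 to 256). A single cell stood apart at the low end. Cell 11 had 1 Esrrb read, and the cell with the next lowest level, cell 19, had 128 reads, or 17.4 CPM.

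The ES cell identity of the ranked cells was checked on the general pluripotency factors. Pou5f1 had 7.60 to 169 CPM in Esrrb-low cells and 3.13 to 160 CPM in Esrrb-high cells, and Sox2 had 8.48 to 205 CPM in Esrrb-low cells and 27.9 to 165 CPM in Esrrb-high cells. Gata6 reached 1.36 CPM in Esrrb-low and 0.939 CPM in Esrrb-high cells, but its limit was part of the choice of cells, so its low level is no check. Of other endoderm genes, Pdgfra reached 0.660 CPM in Esrrb-low and 0.939 CPM in Esrrb-high cells, and Foxa2 had 0 reads. The trophoblast factors Cdx2 and Elf5 and the mesoderm gene T had 0 reads in all 24 cells. Other members of these lists, named after their values were seen, were read. Eomes reached 35.9 CPM in Esrrb-low and 61.7 CPM in Esrrb-high cells, and Gata3 reached 84.3 and 0.467 CPM. Of the endoderm list, Lrp2 reached 82.5 CPM in Esrrb-low and 78.4 CPM in Esrrb-high cells, and Sparc 758 and 662 CPM. The silent genes are thus no check on the whole lists. Depth was similar, with 4408953 to 9767245 gene reads in Esrrb-low cells (median 6507020) and 5867647 to 9122261 in Esrrb-high cells (median 6405302.5). More genes had a read in Esrrb-low cells, 8039 to 10291 (median 9223.5), than in Esrrb-high cells, 8291 to 9384 (median 8663). The part of this difference in the results below was not tested.

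The labels name no separate cultures, so the 24 cells are one sample of one culture condition and no test was made. A gene is called lower or higher here where both its mean and its median differed at least 2-fold between the groups, after adding 1 CPM. Of 11242 genes that averaged 10 reads or more over the 24 cells, 420 were lower in Esrrb-low cells (3.74%) and 768 were higher (6.83%). By the mean alone the numbers were 1593 lower and 2159 higher. No gene separated the groups: 0 genes (0%) were lower in every Esrrb-low cell than in every Esrrb-high cell, and 0 (0%) were higher. The median log2 ratio over all genes tested was 0.04, Esrrb-low over Esrrb-high, as for every ratio below. The balance of lower and higher genes depended on the scaling. With edgeR's TMMwsp factors in place of the plain library total and the same cells, an alternative chosen after seeing the data, 625 genes were lower and 588 higher, and the median of all genes was -0.16, so ratios near 0 carry no direction. Ranking the cells anew on that scale exchanged 1 of the 12 Esrrb-high cells and gave 632 lower and 594 higher genes. How many genes would differ this far between other cells of the same culture condition was not tested.

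The 3 marker genes of the naive state were all lower on average in Esrrb-low cells, but they did not follow Esrrb to the same degree. They were given as markers with the choice of cells, so their levels describe the groups and are no independent check. Klf2, a Krüppel-like factor of the naive network, had 0 CPM in the lowest Esrrb-low cell, 9.61 at the median and 105 in the highest, against 1.49, 75.0 and 192 CPM in Esrrb-high cells. Its mean was 25.3 ± 36.7 CPM in Esrrb-low cells and 78.4 ± 52.9 CPM in Esrrb-high cells (SD, n = 12 cells each), a log2 ratio of -1.59. Klf2 was below the Esrrb-high median in 10 of the 12 Esrrb-low cells, and cells 44 and 29 were the exceptions, at 99.1 and 105 CPM. Pooled over cells, Klf2 had 21.8 CPM in Esrrb-low cells (20.8 to 22.8) and 78.1 CPM in Esrrb-high cells (76.2 to 80.1, exact Poisson intervals). These intervals cover counting error of the pooled reads, not the spread between cells or reads missed at capture in a cell.

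Tet2, a dioxygenase that oxidises methylated cytosine, had 0.771 CPM in the lowest Esrrb-low cell, 278 at the median and 901 in the highest, against 169, 681 and 1499 CPM in Esrrb-high cells. The log2 ratio was -1.14, with 4 Esrrb-low cells below the lowest Esrrb-high cell and 2 above the Esrrb-high median. This call was close to its limit: without cell 34, the Esrrb-high cell with the most Tet2, the ratio was -0.996 and the 2-fold limit was missed. Zfp42 (Rex1), a zinc finger gene widely used as a reporter of the naive state, had 102 CPM in the lowest Esrrb-low cell, 1067 at the median and 2474 in the highest, against 1074, 1758 and 3770 CPM in Esrrb-high cells. Its log2 ratio of -0.85 did not reach the limit. Without cell 11 the ratios were -1.47 for Klf2, -1.02 for Tet2 and -0.73 for Zfp42.

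**Figure D1:**
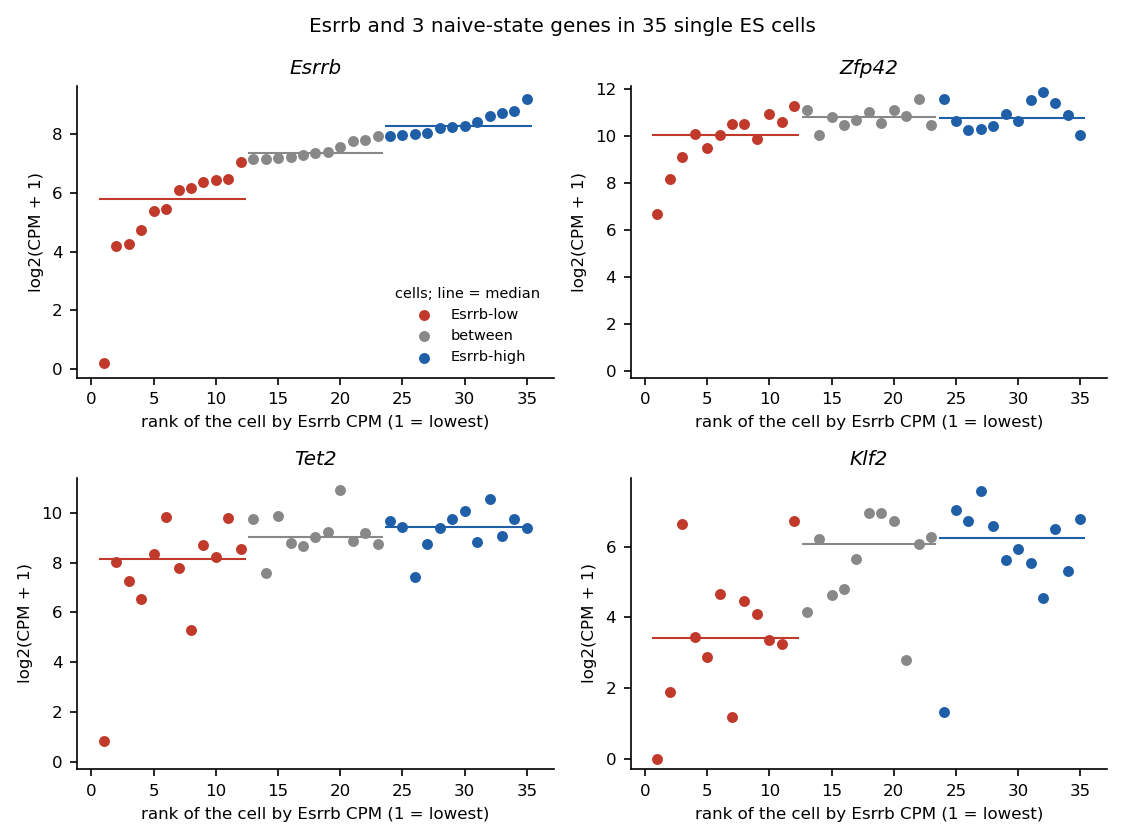
Level of Esrrb, Zfp42, Tet2 and Klf2 as log2(CPM + 1) (vertical axis) in each of 35 cells in order of Esrrb (horizontal axis), with Esrrb-low cells in red, cells between in grey, Esrrb-high cells in blue and a line at each group's median. Cell 11 at rank 1 is the lowest cell for Esrrb, Zfp42, Tet2 and Klf2, and both ends overlap for Zfp42, Tet2 and Klf2.

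Within the groups, Zfp42, a marker given with the choice of cells, had its highest correlation with Esrrb among Esrrb-low cells, as a description without a test. Over the 12 Esrrb-low cells the Spearman correlation of Zfp42 with Esrrb was 0.89 (Pearson 0.91), against 0.19 over the 11 cells between and 0.03 over the 12 Esrrb-high cells. Without cell 11 it was 0.85 over the other Esrrb-low cells. The 2 cells with the least Esrrb had the least Zfp42, 102 and 285 CPM, and the last of the Esrrb-low cells had 2474 CPM. Among Esrrb-low cells the correlation with Esrrb was 0.57 for Tet2, 0.52 for Nanog and 0.41 for Klf2, and without cell 11 it was 0.45 for Tet2, 0.40 for Nanog and 0.23 for Klf2. These values describe single cells of one culture condition, and the labels do not say whether they share a culture or a chip. Both genes of a pair are relative to the same library total. The groups were cut on Esrrb and span unequal ranges of it (0.154 to 132, 142 to 243 and 245 to 589 CPM). Their correlations are therefore not a like comparison, and a difference in coupling was not tested.

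The wider naive list had 27 genes with enough reads. Of these 4 (14.8%) were lower in Esrrb-low cells, against 3.74% of all genes tested, 0 were higher, and 20 of the 27 ratios were below 0, with a list median of -0.72. Over all genes tested 47.9% of the ratios were below 0. The list holds the markers Klf2 and Zfp42, and Klf2 is among the 4 lower genes, so the share is no independent support. Besides Klf2 the lower genes were Mras, Tbx3 and Zfp57. Tbx3, a T-box repressor of differentiation, had 0 CPM in the lowest, 0.589 at the median and 122 in the highest Esrrb-low cell, against 0.110, 54.9 and 273 CPM in Esrrb-high cells (log2 ratio -1.44). Under 10 CPM were 8 of 12 Esrrb-low cells and 5 of 12 Esrrb-high cells, and whether reads were missed at capture was not tested. The cells between had a Tbx3 median of 108 CPM, above both ends. The Tbx3 call was lost with 8 cells at each end, without the Gata6 limit, and with cells ranked by lane 1 and values from lane 2. Mras, a small GTPase of the Ras family, had 0 CPM in the lowest, 0.327 at the median and 57.8 in the highest Esrrb-low cell, against 0, 42.3 and 144 CPM in Esrrb-high cells (-2.05).

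Zfp57, a KRAB zinc finger protein that guards imprints, had 2.00 CPM in the lowest Esrrb-low cell, 398 at the median and 854 in the highest, against 98.0, 1003 and 2465 CPM in Esrrb-high cells (-1.32). All 12 Esrrb-low cells were below the Esrrb-high median. The central factors did not reach 2-fold. Nanog had 1.47 CPM in the lowest Esrrb-low cell, 23.2 at the median and 121 in the highest, against 6.89, 43.5 and 162 CPM in Esrrb-high cells (-0.78). The ratio was -0.80 for Tfcp2l1, -0.56 for Klf4 and -0.86 for Nr0b1 (Dax1), a corepressor that binds Esrrb.

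Dppa3 (Stella), a maternal factor that protects DNA methylation, ran the other way by its mean. It had 0 CPM in the lowest Esrrb-low cell, 138 at the median and 1026 in the highest, against 0.156, 76.5 and 457 CPM in Esrrb-high cells, a log2 ratio of 1.14 by the mean and 0.84 by the median, which did not reach the limit. Summed over the naive list, cells had 3673 to 10254 CPM in the Esrrb-low group (median 8113) and 3900 to 11096 in the Esrrb-high group (median 9089). The sums overlapped widely, and the abundant members Dppa5a (0.41) and Spp1 (-0.03), named after their values were seen, were not lower.

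General pluripotency genes were mostly level. Of 20 tested, 2 (10%) were lower, against 3.74% of all genes tested, and 1 (5%) was higher, against 6.83%. The list median was -0.04, and calls this few say little about the list. Gdf3, a TGF-beta family ligand, had 4.24 CPM in the lowest Esrrb-low cell, 98.5 at the median and 288 in the highest, against 96.9, 288 and 428 CPM in Esrrb-high cells (-1.27). Each of the 12 Esrrb-low cells lay below the Esrrb-high median, and 6 lay below the lowest Esrrb-high cell. Foxd3, a forkhead repressor, had a median of 0 CPM and at most 10.2 CPM in Esrrb-low cells, against a median of 2.01 and a highest value of 35.5 CPM in Esrrb-high cells (-2.09). The log2 ratio was -0.29 for Pou5f1 and 0.24 for Sox2.

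Receptors and cofactors of the Esrrb family held 1 called gene. Of 24 nuclear receptor and coregulator genes tested, 0 were lower, against 3.74% of all genes tested, and 1 (4.17%) was higher, against 6.83%. The median ratio was -0.08. With TMMwsp factors and the same cells 1 was lower and 0 were higher, and counts this small are no result about the list. Ncoa3, the coactivator that binds Esrrb in ES cells, had 42.6 CPM in the lowest Esrrb-low cell, 519 at the median and 957 in the highest, against 264, 513 and 975 CPM in Esrrb-high cells (0.13). Ncoa1, a related coactivator, was the gene called higher (1.17), and without cell 10 its ratio was 0.51. The paralog Esrra stayed at 9.68 CPM or less in Esrrb-low cells and at 6.59 CPM or less in Esrrb-high cells, and Esrrg had 0 reads.

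**Figure D2:**
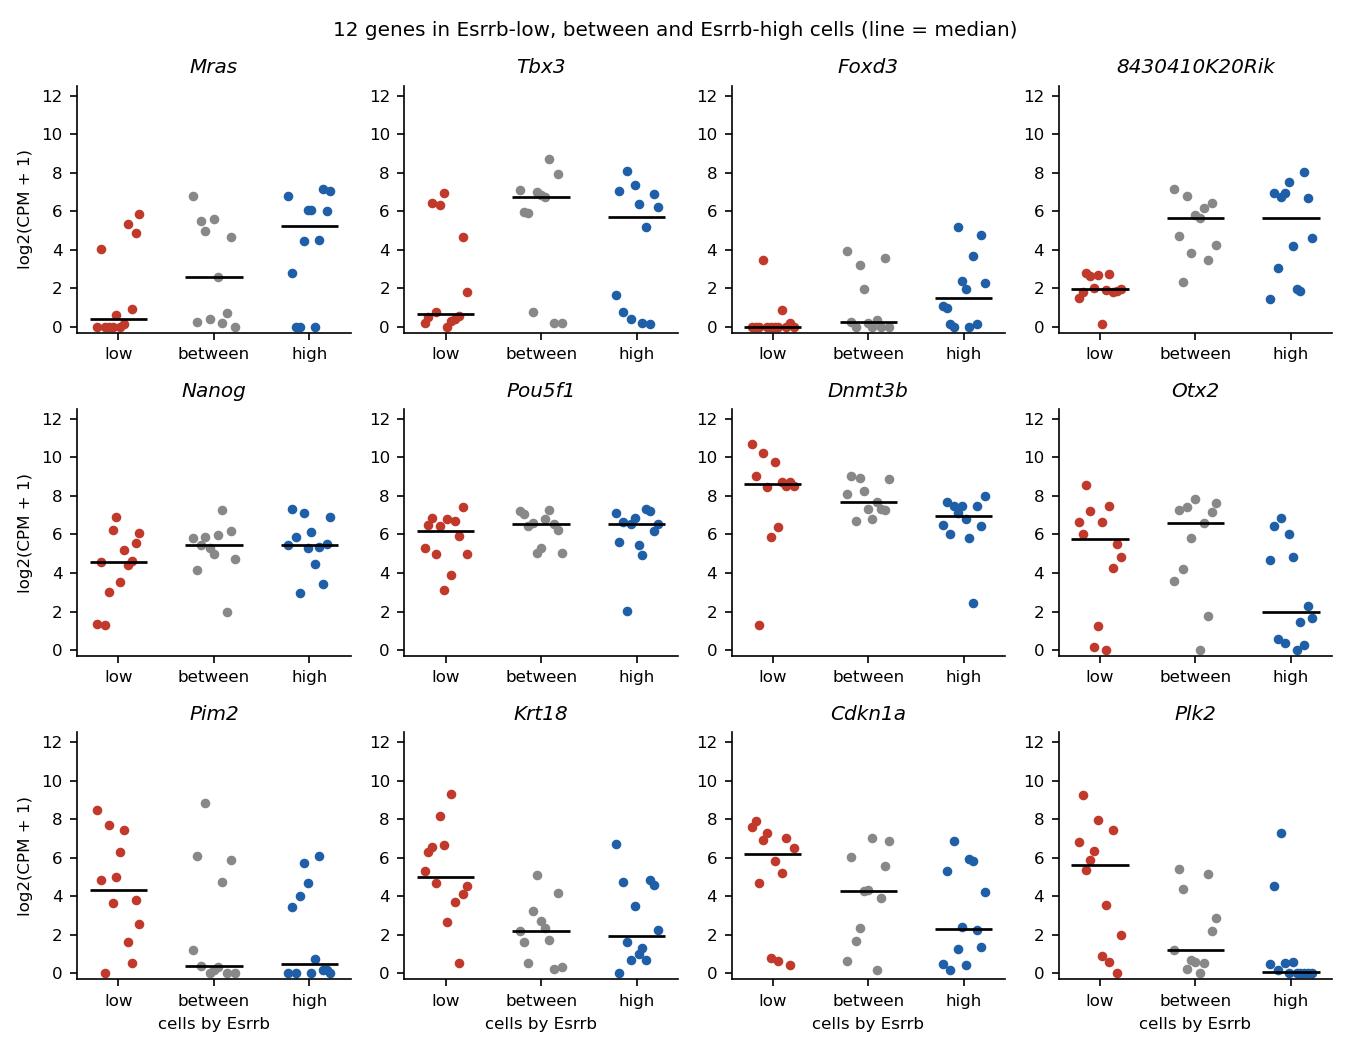
Level of 12 named genes as log2(CPM + 1) (vertical axes) in single cells, with 12 Esrrb-low cells in red, 11 cells between in grey, 12 Esrrb-high cells in blue and black lines at the medians. Mras and Tbx3 are near 0 in most Esrrb-low cells, 8430410K20Rik is under 10 CPM in all 12, and Dnmt3b is above every Esrrb-high cell in 9 of 12.

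Genes of the primed epiblast were shifted the other way. Of 26 tested, 7 (26.9%) were higher in Esrrb-low cells, against 6.83% of all genes tested, 2 (7.69%) were lower, against 3.74%, and 18 of the ratios were above 0, with a median of 0.75. The list was chosen with earlier results of these data known, so the share is no independent support. Dnmt3b, a de novo DNA methyltransferase that rises after implantation, had 1.47 CPM in the lowest Esrrb-low cell, 393 at the median and 1666 in the highest, against 4.38, 123 and 257 CPM in Esrrb-high cells. Its mean was 525 ± 490 CPM in Esrrb-low cells and 128 ± 72.9 CPM in Esrrb-high cells (SD, n = 12 cells each), a log2 ratio of 2.03. Dnmt3b exceeded the highest Esrrb-high cell in 9 of the 12 Esrrb-low cells, while cell 44 held the lowest value of all 24.

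Otx2, a homeobox factor of the primed state, had 0 CPM in the lowest Esrrb-low cell, 54.4 at the median and 377 in the highest, against 0, 3.09 and 115 CPM in Esrrb-high cells (1.66). Under 10 CPM were 3 of 12 Esrrb-low cells and 7 of 12 Esrrb-high cells. The cells between had a median of 97.1 CPM, above both ends, so Otx2 did not fall evenly along the ranking. Pim2, a serine/threonine kinase, had a median of 20.6 and a highest value of 355 CPM in Esrrb-low cells, against a median of 0.406 and a highest value of 65.9 CPM in Esrrb-high cells (2.35). Sfrp2, a secreted WNT antagonist, reached 66.9 CPM in Esrrb-low cells and 2.80 CPM in Esrrb-high cells (3.59).

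The other higher members were Krt18 (2.62), Nodal (1.45) and the tight junction gene Cldn6 (1.79), which is named here after its values were seen. Krt18 and Krt8 are also in the list of trophectoderm genes below, so the primed and trophectoderm sums share them. Cldn6 had 38.4 CPM in the lowest Esrrb-low cell, 174 at the median and 502 in the highest, against 0, 40.3 and 246 CPM in Esrrb-high cells. Fgf5, the textbook primed marker, had too few reads to be tested. It reached 8.50 CPM in Esrrb-low cells and 0.110 CPM in Esrrb-high cells, and its highest value, 92.3 CPM, was in one of the cells between. Foxd3 and Etv4 were the 2 lower members. Summed over the primed list, cells had 771 to 3734 CPM in the Esrrb-low group (median 1517) and 301 to 1584 CPM in the Esrrb-high group (median 863). The highest sums of the Esrrb-low group were 3734 CPM in cell 11 and 3281 CPM in cell 12. High sums were not limited to that group: cell 30, one of the cells between, had 3502 CPM.

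Of 18 DNA methylation genes tested, 2 (11.1%) were lower, Tet2 and Zfp57, and 2 (11.1%) were higher, Dnmt3b and Mbd4, with a median of 0.05. Over all genes tested the shares were 3.74% lower and 6.83% higher, and with so few members the counts say little about the list. Tet2 was itself given as a marker with the choice of cells. Mbd4, a thymine DNA glycosylase that binds methylated CpG, had 0.335 CPM in the lowest Esrrb-low cell, 35.1 at the median and 231 in the highest, against 0.110, 9.66 and 121 CPM in Esrrb-high cells (1.61). Tet1, the other abundant dioxygenase, had a ratio of -0.10, and Dnmt1, Dnmt3a and Dnmt3l had 0.32, 0.11 and -0.01. Among 10 genes of Polycomb complex 2, which methylates histone H3, only Ezh1 was called. It had a median of 0.968 and a highest value of 39.9 CPM in Esrrb-low cells, against 21.0 and 179 CPM in Esrrb-high cells (-2.84), while its paralog Ezh2 had a ratio of -0.36.

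Promoters of the called genes were compared for AAGGTCA, the core half-site of estrogen-related receptors, on both strands (TGACCTT on the other). The window ran from 250 bases before to 50 after each RefSeq start (GRCm38.p6; the counts use mm9). It was available for 344 of the 420 lower, 615 of the 768 higher and 8945 of the 11242 tested genes. The half-site was present in 3.49% of the lower, 2.76% of the higher and 3.91% of all tested genes. Among the 57 named genes with a promoter, 1, Zfp57, held it. The 250 bases before the start of Klf2, the marker called lower under every alternative, and of Dnmt3b, the primed gene above every Esrrb-high cell in 9 of 12 Esrrb-low cells, hold none. Both are shown with the Zfp57 match, its half-site in capitals.
Klf2 (chr8:72318812-72319061, plus strand): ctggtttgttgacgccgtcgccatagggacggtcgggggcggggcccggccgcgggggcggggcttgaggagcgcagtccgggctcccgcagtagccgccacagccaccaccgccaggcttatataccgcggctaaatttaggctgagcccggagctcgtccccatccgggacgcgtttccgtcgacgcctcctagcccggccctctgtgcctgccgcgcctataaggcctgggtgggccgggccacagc
Dnmt3b (chr2:153649199-153649448, plus strand): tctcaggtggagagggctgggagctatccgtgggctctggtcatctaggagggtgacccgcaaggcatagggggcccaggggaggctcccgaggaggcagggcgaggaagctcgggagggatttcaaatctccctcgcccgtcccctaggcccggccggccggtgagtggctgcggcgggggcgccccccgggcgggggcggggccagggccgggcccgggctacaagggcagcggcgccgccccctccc
Zfp57, at a start (chr17:37002522-37002548, plus strand): tctaaatttcTGACCTTggcagacagc
The letters describe the windows alone, and a match is not a binding site.

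Signalling lists had 0 to 3 called members in a direction, against 3.74% lower and 6.83% higher over all genes tested, and counts this small are no result about a list. LIF-STAT3 genes, which sustain ES cells in serum, had a median ratio of -0.71, with 14 of 18 below 0, but 0 were called lower. Socs3, the feedback inhibitor, was called higher, with a median of 6.63 and a highest value of 101 CPM in Esrrb-low cells, against 0.405 and 19.5 CPM in Esrrb-high cells (1.82). This list depended on scaling: with TMMwsp factors and the same cells 3 members were lower and 1 was higher, and with cells ranked anew 5 were lower. The receptor gene Lifr had a ratio of -0.71 and Stat3 of -0.75.

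FGF-ERK genes, whose pathway drives exit from the naive state, had 3 of 17 (17.6%) higher, 1 (5.88%) lower and a median of 0.57. Fgfr1, the main FGF receptor of ES cells, had 1.59 CPM in the lowest Esrrb-low cell, 41.4 at the median and 161 in the highest, against 0.124, 8.28 and 74.6 CPM in Esrrb-high cells (1.71). Spred2, an inhibitor of the pathway, had a ratio of 2.01, and Etv4, a target of the pathway, was lower (-1.35). In the NODAL-BMP list of 19 genes, Nodal and its antagonist Lefty2 (1.08) were higher and Bmp4 (-1.33) and Smad1 (-1.14), of the BMP branch, lower, with a median of 0.57. Lefty2 and Smad1 are the least stable of these calls: the call was lost on leaving out any of 16 cells for Lefty2 and any of 12 for Smad1. Leaving out any of 6 cells ended that for Etv4, the Bmp4 ratio was -0.64 without cell 37, and that of Nodal 0.77 without cell 35. Among 14 WNT genes, only Axin1, a scaffold of the β-catenin destruction complex, was called (-1.42), and without cell 24 its ratio was -0.65. Tcf7l1 (Tcf3), a repressor of Esrrb, had 11.1 CPM in the lowest Esrrb-low cell, 70.4 at the median and 425 in the highest, against 0.626, 43.2 and 209 CPM in Esrrb-high cells (0.92, under the limit).

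**Figure D3:**
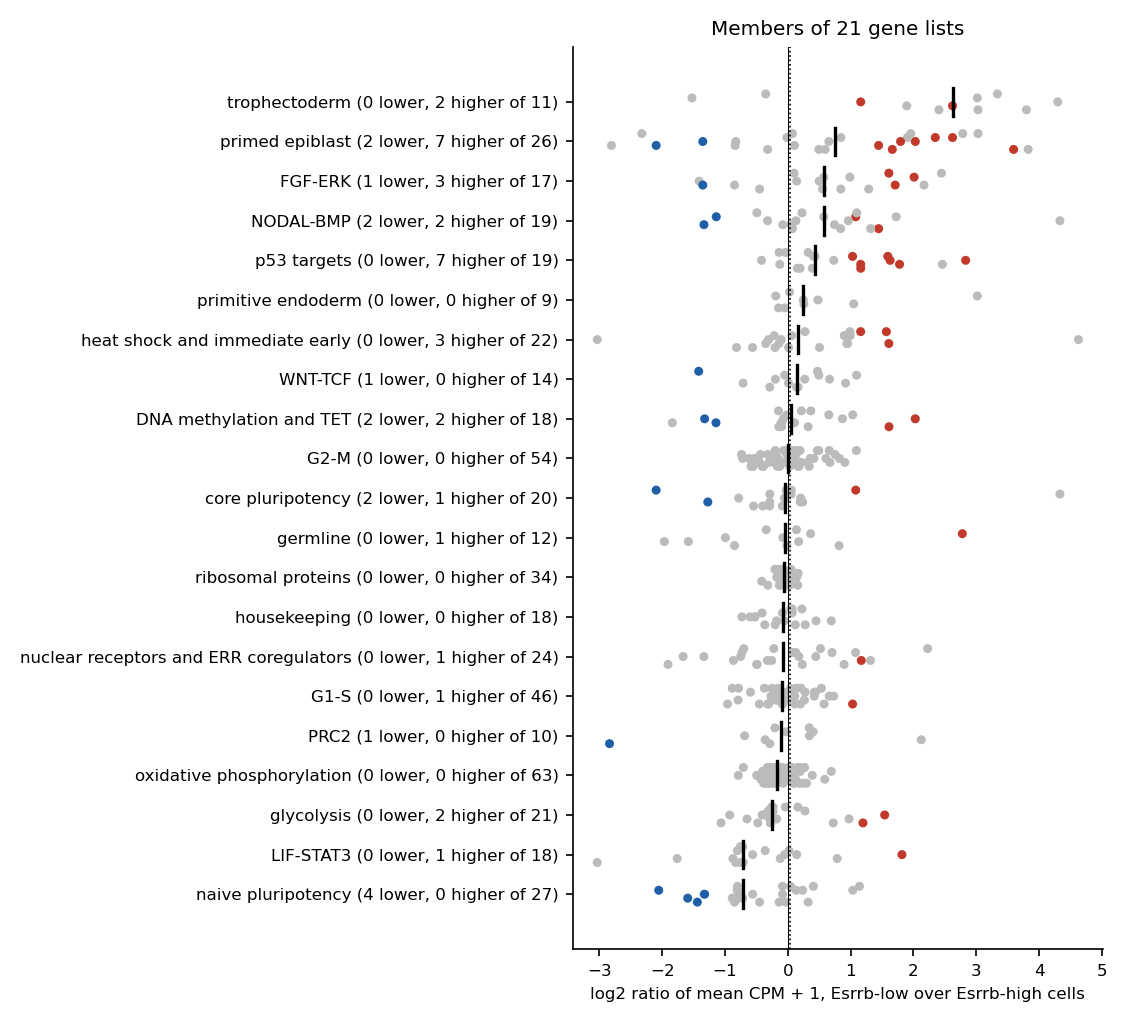
Log2 ratio of mean CPM + 1, Esrrb-low over Esrrb-high (horizontal axis), for every tested member (points) of the gene lists with at least 9 tested genes, ordered by list median (black bars), with lower calls in blue, higher calls in red and a dotted line at the median of all genes tested. The naive list, with a median of -0.72, lies at the bottom, and the primed list, at 0.75, near the top.

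Among targets of p53, several were higher in part of the Esrrb-low cells. Of 19 tested, 7 (36.8%) were higher, against 6.83% of all genes tested, 0 were lower and the median was 0.43. This list too was chosen with earlier results known, so the share only describes these cells. With TMMwsp factors and the same cells 4 were higher, and the median was 0.30; with cells ranked anew the median was 0.12. Plk2, a Polo-like kinase, had 0 CPM in the lowest Esrrb-low cell, 48.8 at the median and 614 in the highest, against 0, 0.0582 and 155 CPM in Esrrb-high cells (2.83). Cdkn1a (p21), the cyclin-dependent kinase inhibitor, had 0.330 CPM in the lowest Esrrb-low cell, 73.2 at the median and 240 in the highest, against 0.116, 3.98 and 114 CPM in Esrrb-high cells (1.78). Under 10 CPM of Cdkn1a were 3 Esrrb-low and 7 Esrrb-high cells.

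The stress gene Sesn2 (1.63) and Trp53inp1 (1.59) were also called, with Btg2 (1.16), and so were Mdm2 (1.16) and Ei24 (1.03), which are named after their values were seen. Leaving out any of 6 Esrrb-low cells ended the call of Trp53inp1, and leaving out cell 19, 44 or 23 that of Btg2, with a lowest ratio of 0.71. Mdm2, the ubiquitin ligase of p53, had 2.31 CPM in the lowest Esrrb-low cell, 322 at the median and 1084 in the highest, against 0.555, 13.0 and 1510 CPM in Esrrb-high cells. The highest Mdm2 value of the 24 cells thus lay in an Esrrb-high cell, cell 37. The summed level of the list was 604 to 4594 CPM in Esrrb-low cells (median 2050) and 380 to 4765 CPM in Esrrb-high cells (median 662). Among Esrrb-low cells this sum had a Spearman correlation of -0.70 with Esrrb, against 0.56 over the 11 cells between and -0.18 over Esrrb-high cells. The groups span unequal ranges of Esrrb, so these values are not a like comparison. The primed sum and the p53 sum had a correlation of 0.22 over the 12 Esrrb-low cells. Among Esrrb-low cells the primed sum was highest in cells 11, 12 and 14, and the p53 sum in cells 19, 44 and 23. The primed sum of cell 14, 2810 CPM, held 621 CPM of Krt18, with 0 CPM of Otx2 and 82.8 CPM of Dnmt3b.

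Keratin and trophectoderm genes were high in a few Esrrb-low cells. Of 11 tested, 2 (18.2%) were called higher, against 6.83% of all genes tested, 0 lower, and the median was 2.62. Earlier results were known when this list was chosen, and calls this few say little about it. With the difference of mean log2 values the list median was 0.99. With TMMwsp factors and the same cells 1 gene was higher, and the median was 2.47. Krt18, the partner of Krt8 in simple epithelium, had 0.460 CPM in the lowest Esrrb-low cell, 31.3 at the median and 621 in the highest, against 0, 2.89 and 105 CPM in Esrrb-high cells. Tfap2c (1.16), an AP-2 factor that ES cells also express, was the other gene called, and its call was lost without cell 14 or cell 23, with a lowest ratio of 0.86. Krt8 (3.03), Krt7 (4.30) and Gata3 (3.80), named after their values were seen, had large ratios by the mean but medians of 0.674, 0 and 0 CPM in Esrrb-low cells and 0.798, 0 and 0 CPM in Esrrb-high cells, and were not called. The list sum was 2088 CPM in cell 14 and 852 CPM in cell 10, and 17.0 to 380 CPM in the other 10 Esrrb-low cells, against 0.782 to 220 CPM in Esrrb-high cells.

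**Figure D4:**
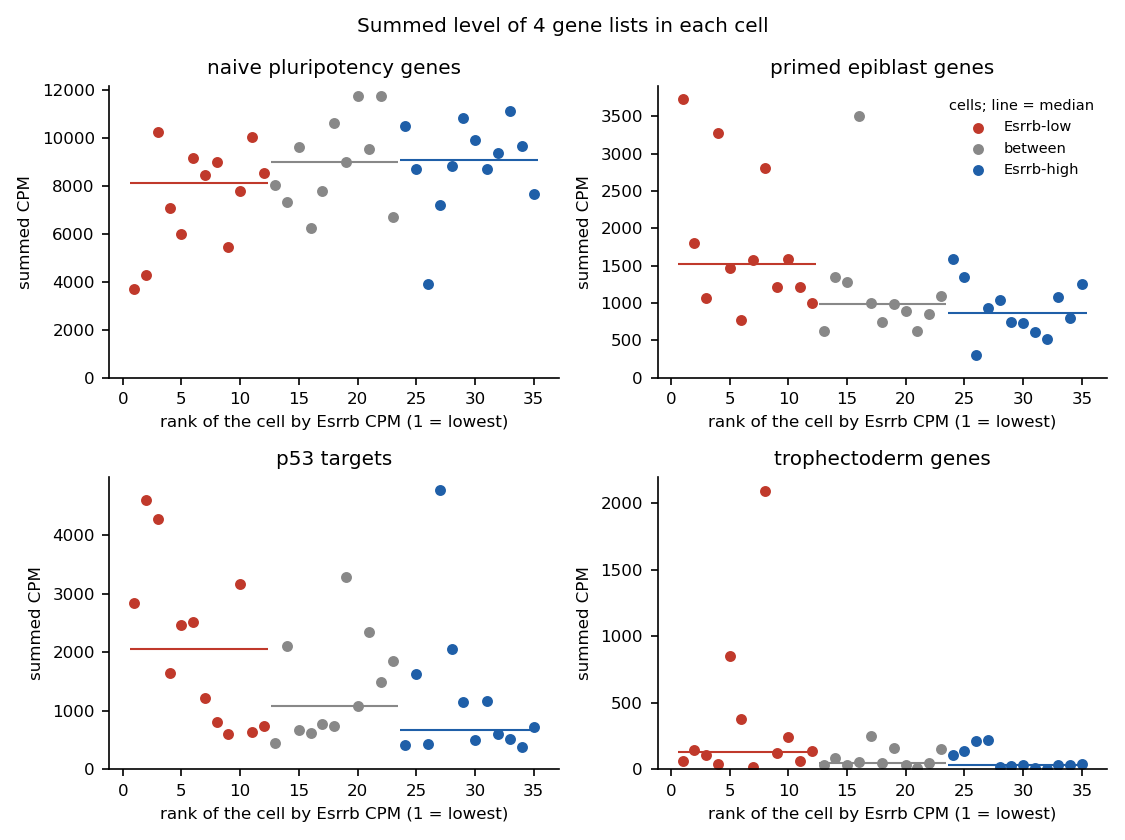
Summed CPM of 4 gene lists (vertical axes, linear) in each of 35 cells in order of Esrrb (horizontal axis), with Esrrb-low cells in red, cells between in grey, Esrrb-high cells in blue and a line at each group's median. Primed sums reach 3734 CPM at rank 1, and the trophectoderm sum exceeds 800 CPM in 2 Esrrb-low cells.

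Growth and housekeeping programmes had few calls. Of the genes tested, 0 of 63 in oxidative phosphorylation, 0 of 54 in G2-M, 0 of 34 for ribosomal proteins and 0 of 18 for housekeeping were called in either direction, with medians of -0.17, 0.00, -0.07 and -0.07. Over all genes tested 3.74% were lower and 6.83% higher. In G1-S 1 of 46 was higher (Slbp, the histone mRNA binding protein, 1.03, at the limit) and 0 were lower. With TMMwsp factors and the same cells 3 G1-S genes were lower and 0 higher. Glycolysis had 2 of 21 (9.52%) higher, near the 6.83% of all genes tested, Hk1 (1.54) and Eno3 (1.20), and a median of -0.26. The Hk1 ratio was 0.82 without cell 10, and the Eno3 call was lost without cell 10 or cell 14, with a lowest ratio of 0.76. The Slbp call was lost on leaving out any of 12 cells. Heat shock and immediate early genes had 3 of 22 (13.6%) higher, against 6.83% of all genes tested, and 0 lower. The higher genes were Fos (1.57), Ier3 (1.61) and Btg2. The Fos ratio rested on cell 44 with 1360 CPM, without which it was -0.06, and the Ier3 ratio was 0.50 without cell 7. Among 12 germline genes Sycp3, of the meiotic synaptonemal complex, was higher (2.78), a call lost on leaving out any of 6 cells. Of 9 endoderm genes with enough reads 0 were called, and the lists for mesendoderm, neuroectoderm and fibroblasts had 1 tested gene each, with 0 called, and that for 2-cell-like cells 0.

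The largest single difference among lower genes was in 8430410K20Rik, which RefSeq lists as Msantd4, a gene with a Myb/SANT-like domain. It had 0.127 CPM in the lowest Esrrb-low cell, 2.87 at the median and 5.87 in the highest, against 1.74, 63.2 and 266 CPM in Esrrb-high cells (-4.21). All 12 Esrrb-low cells had under 10 CPM, against 4 of 12 Esrrb-high cells. The cells between had a median of 48.9 CPM, near the Esrrb-high level. Pooled over cells, the level was 3.32 CPM in Esrrb-low (2.95 to 3.74) and 82.8 CPM in Esrrb-high cells (80.8 to 84.8, exact Poisson intervals).

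The next 11 lower genes by size were Hinfp (a regulator of histone H4 genes), Fn3krp, Aacs (acetoacetyl-CoA synthetase), Gtpbp8, Ercc8 (transcription-coupled repair), Pgm2, Hmgxb3, Sft2d2, Bicd2 (a dynein adaptor), Dusp16 (a MAP kinase phosphatase) and Ppox (haem synthesis). Their ratios ran between -4.19 for Hinfp and -3.17 for Ppox. Their median levels were at most 2.08 CPM in Esrrb-low cells and between 1.48 and 13.0 CPM in Esrrb-high cells. Their highest values were 113 to 447 CPM in Esrrb-high cells, so each ratio rests on a few cells. Leaving out any of 6 single cells ended the call for each of Hinfp, Fn3krp, Ercc8, Pgm2, Sft2d2 and Bicd2. With a pseudocount of 10 CPM the call was lost for all of the 11 except Ppox. Ppox lost it on division of the kept cells at the median. Hmgxb3 and Dusp16 lost it there too, and also without the Gata6 limit.

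Higher genes with the largest ratios were near 0 in most Esrrb-high cells and high in part of the Esrrb-low cells. They were picked by that ratio and a mean of at least 20 CPM in Esrrb-low cells, so these levels follow from the choice. Each of the 11 given here kept its call on leaving out any cell, which a choice by large ratios favours, but most lost it under another setting. Irgm1, an interferon-induced GTPase, had 0 CPM in the lowest Esrrb-low cell, 29.3 at the median and 325 in the highest, against 0, 0.0706 and 0.555 CPM in Esrrb-high cells (5.88). Of the Esrrb-low cells, 7 had over 10 CPM and 5 did not. Mal2, a transcytosis protein, had a median of 31.5 and a highest value of 136 CPM in Esrrb-low cells, against 0 and 0.249 CPM in Esrrb-high cells (5.44). In the cells between it had a median of 0 CPM and a highest value of 244 CPM.

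Lgals9 (galectin-9) reached 285 CPM in Esrrb-low and 11.4 CPM in Esrrb-high cells (4.99). Amotl1, an angiomotin of the Hippo pathway, reached 153 CPM in Esrrb-low and 5.92 CPM in Esrrb-high cells (4.61). The gene 4930471M23Rik, listed by RefSeq as Slc35f6, reached 203 CPM in Esrrb-low and 0.647 CPM in Esrrb-high cells (5.18). Ratios of 4.49 to 5.01 were found for Mup6, Apaf1 (the apoptosome scaffold), Slc17a5 (a lysosomal sialic acid exporter), Fbxo21, Arntl (Bmal1, a clock factor) and Baat1. Mup6 belongs to a family of near-identical genes, so its reads may come from another copy. Medians of these 11 genes were 2.43 to 31.5 CPM in Esrrb-low cells and at most 0.298 CPM in Esrrb-high cells. With a pseudocount of 10 CPM the call was lost for Mup6, Apaf1, Slc17a5, Fbxo21, Arntl and Baat1. Without the Gata6 limit it was lost for Irgm1, Mal2, Slc17a5, Arntl and Baat1. Only 4930471M23Rik, Lgals9 and Amotl1 kept it under every alternative.

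**Figure D5:**
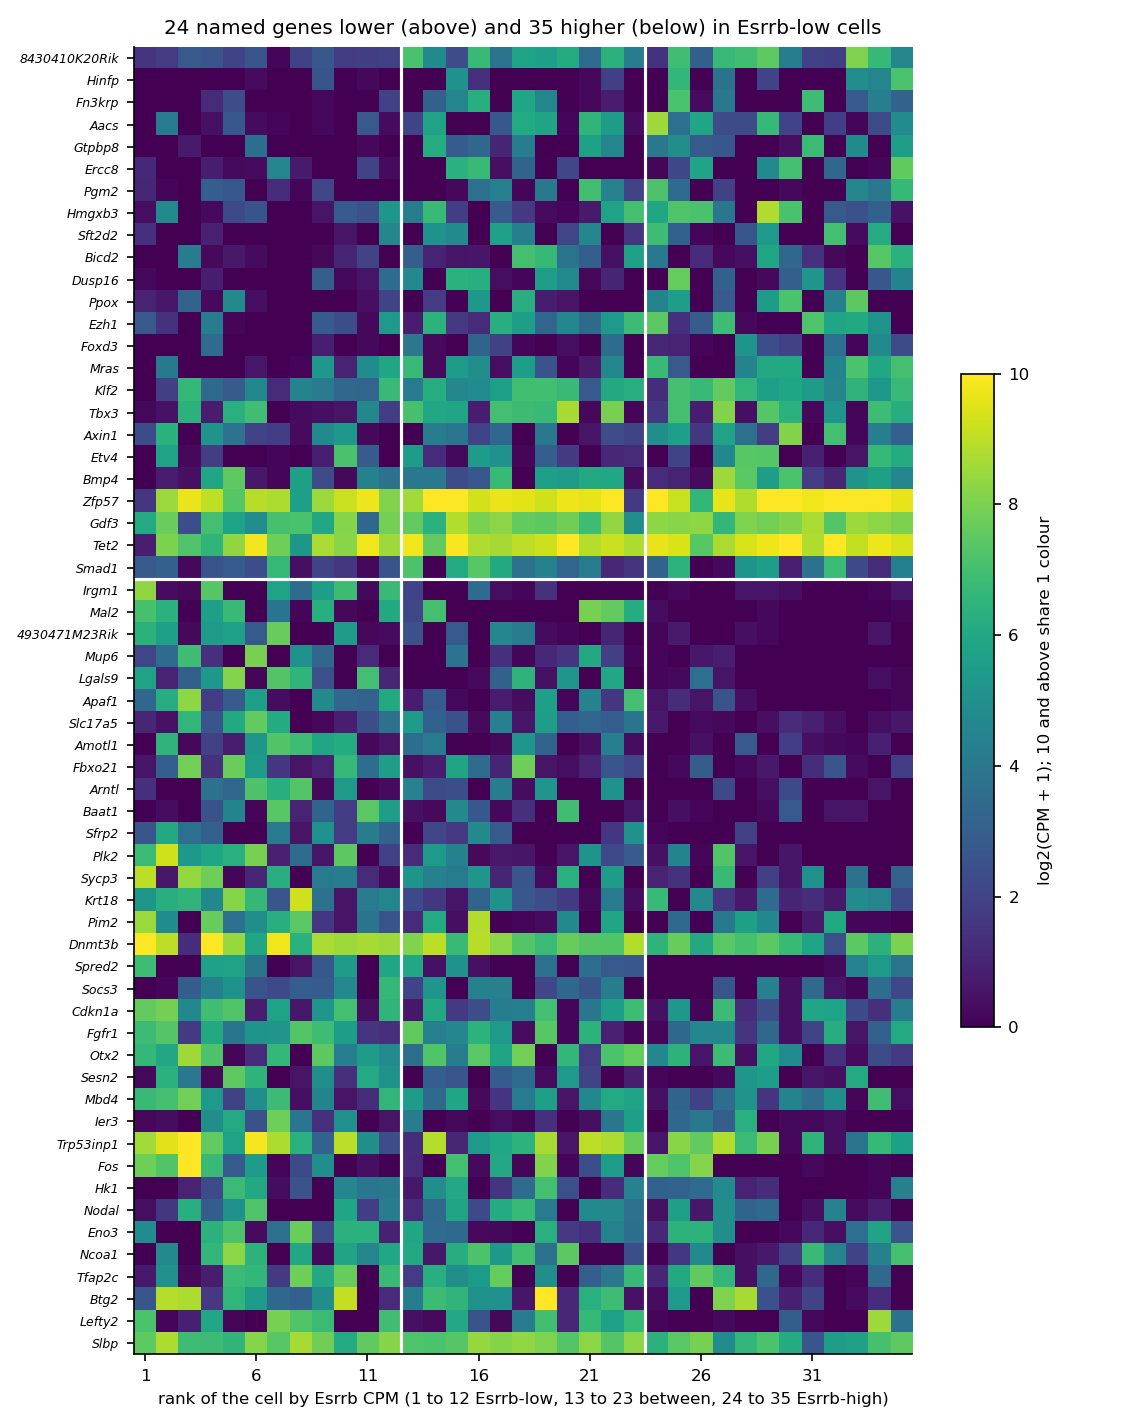
Level as log2(CPM + 1) (colour) of 24 named genes lower (upper block) and 35 higher (lower block) in Esrrb-low cells, for 35 cells in order of Esrrb (columns); white lines part the Esrrb-low cells, the cells between and the Esrrb-high cells. Most genes are read in part of the cells of a group, and Tet2, Zfp57, Gdf3, Dnmt3b and Slbp are among the few read in nearly all.

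Single Esrrb-low cells differed in which genes were low or high. Cell 11 had the lowest Zfp42, Tet2, Klf2 and naive sum of the group and the highest Dnmt3b and Mdm2. Cell 44, with 18.3 CPM of Esrrb, had the highest Otx2 (377 CPM) and the highest naive sum (10254 CPM) of the Esrrb-low cells but almost no Dnmt3b (1.47 CPM) and no Dppa3. Cell 14 had 0 CPM of Otx2, 1026 CPM of Dppa3 and the highest Krt18 (621 CPM). Of the 420 lower genes, 42 to 144 had 0 reads in a given Esrrb-low cell (median 86.5) and 33 to 88 in a given Esrrb-high cell (median 62.5). Of the 768 higher genes, 32 to 216 had 0 reads in an Esrrb-low cell (median 101) and 185 to 266 in an Esrrb-high cell (median 219.5). The calls chose these genes, so these counts only describe them.

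The cells between were not used for the calls and give a separate look at the same genes. Over these 11 cells, 43.3% of the 420 lower genes had a positive Spearman correlation with Esrrb, against 45.9% of all genes tested. A negative one was found for 52.5% of the 768 higher genes, against 52.9% of all genes tested. The median correlation was -0.07 for lower genes, -0.02 for higher genes and -0.03 for all genes. In the cells between, the called genes thus had no gradient with Esrrb beyond that of all genes, over an Esrrb range of 142 to 243 CPM. By level, Klf2 and 8430410K20Rik were near the Esrrb-high median there (66.8 and 48.9 CPM), and Krt18 and Pim2 too (3.58 and 0.314 CPM). Dnmt3b lay between the medians of the groups, at 206 CPM.

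Ranking the same 35 cells by another gene gave other groups. The 12 lowest or 12 highest cells are 34.3% of the 35, which is the share to read these overlaps against. Tet2, Klf2 and Zfp42 were given as markers with the choice of cells, so their overlaps are no independent check. Of the 12 Esrrb-low cells, 9 (75.0%) were also among the 12 lowest for Tet2, 9 for Klf2, 7 (58.3%) for Nanog, 7 for Zfp42, 6 (50%) for Tbx3 and Tfcp2l1, 4 (33.3%) for Klf4 and 3 (25.0%) for Dppa3. Of the 12 Esrrb-high cells, 7 were among the highest for Tet2, 6 for Klf2, Zfp42 and Tfcp2l1, 5 for Nanog and Klf4, and 4 for Tbx3 and Dppa3. For Dppa3, 5 Esrrb-low cells were among its 12 highest cells and 5 Esrrb-high cells among its 12 lowest. Of the 13 cells left out for Gata6, 11 had Esrrb at or below the highest Esrrb-low cell and 0 reached the lowest Esrrb-high cell, so the low end depends on that limit.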

How the data were processed

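Single J1 cells were captured on a C1 chip, amplified with the SMARTer kit and sequenced as Nextera XT libraries on a HiSeq, per the labels' protocols. The authors deposited 1 table of whole-number counts per gene, 23284 gene rows by 96 lane columns, not normalized. Build mm9 and the tools featureCounts, Subread 1.4.5-p1 and STAR 2.3.1z12 appear in the submitters' processing notes without a role. How reads that match several genes were counted is not given in the sources used here. The kit does not mark strand, so reads of overlapping antisense genes cannot be told apart.

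Here the 2 lanes of a cell were summed and divided by the cell's total to give CPM. No cell was filtered on depth, and no doublet caller was run. Cells, groups and genes were taken as the report states. Python 3.11.15 with pandas 2.3.3, numpy 2.4.6 and scipy 1.17.1 made the values. edgeR 4.0.16 and DESeq2 1.42.0 in R 4.3.3 gave only alternative scaling factors; their count tests were not run, since the labels name no replicate cultures. Reads are not independent molecules, so Poisson intervals cover counting error only.

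The cells, the 25 gene lists (547 genes) and the rules were chosen with earlier results of these data known. Named genes are Zfp42, Tet2 and Klf2, the 12 called genes with the largest ratio in each direction and a mean of at least 20 CPM in the higher group, up to 4 called members per list and direction, and Pou5f1, Sox2, Nanog, Klf4, Dppa3, Tfcp2l1, Tbx3, Otx2, Dnmt3b, Tcf7l1, Ncoa3, Nr0b1 and Esrra. Others are marked in the text, and 1 gene that the rule names is not reported here.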

Additional observations from a re-analysis of the deposited data

How the results depend on the processing

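Counts of lower and higher genes depended on the settings more than the directions of named genes did. The main comparison called 420 lower and 768 higher of 11242 genes tested. TMMwsp factors gave 632 lower (625 with the same cells). A pseudocount of 10 CPM gave 146 lower and 248 higher, and the difference of mean log2 values 1279 higher. With 8 cells at each end, 11022 genes were tested, and there were 805 lower and 1228 higher genes, of which 5 did not overlap. Smaller groups fail to overlap more easily, so this count cannot be set beside that of the main comparison. Dividing the kept cells at the median gave 229 lower and 472 higher of 11434 tested. Without the Gata6 limit, where 4 of the 12 Esrrb-low cells are shared, 11354 genes were tested. Of these 992 were lower, 1240 higher and 2 lower without overlap. Leaving out each cell in turn gave 365 to 478 lower, 694 to 875 higher, 0 lower without overlap, and 0 to 1 higher without overlap. Without cell 11 there were 415 lower and 733 higher of 11225 genes tested.

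Ratios reversed without the Gata6 limit for 8430410K20Rik (0.0441), Pgm2 (0.57), Smad1 (0.56), Ncoa1 (-0.97), Nodal (-0.44), Tfap2c (-3.03) and Eno3 (-0.33), on division at the median for Smad1 (0.63) and Btg2 (-0.18), and without cell 44 for Fos (-0.0578, with a highest value of 2.296 without cell 31). The cause was not tested. On leaving out any cell, 13 of the 24 named lower genes and 23 of the 35 named higher genes kept their call. Under every alternative 2 lower genes (Klf2 and Ezh1) and 6 higher genes did. Of the list medians under the alternatives, 8 moved by more than the spread and 811 did not. Many named genes were read in part of the cells, which limits those calls. No paired analysis was possible because all cells form a single group with no comparison between labelled groups.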
